A study of Homo sapiens with 9 samples.

Results

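Fibroblast growth factor (FGF) ligands and receptors were followed through 10 genes: the ligands FGF2, FGF5, FGF18, FGF19 and FGF21, the receptors FGFR1, FGFR2, FGFR3 and FGFR4, and the co-receptor KLB. They were taken by gene symbol and are 10 of the 20030 genes in the deposited table. The study sequenced RNA from MHCC97L, a human hepatocellular carcinoma line, and from 2 drug-resistant lines derived from it, with 3 libraries per line and 9 in all. MHCC97L was untreated, MHCC97L-Src was stably resistant to 4 μmol/L saracatinib, an inhibitor of SRC family kinases, and MHCC97L-Oxa was stably resistant to 2 μmol/L oxaliplatin, a platinum drug that damages DNA. The saracatinib-resistant cells were selected in culture under rising drug concentrations. The study's text speaks of independent experiments for the comparison of MHCC97L with MHCC97L-Src. The labels do not say whether drug was present at harvest or whether the 3 libraries of a line are separate cultures. With 1 derivative per drug, the drug and the derivation of the line cannot be told apart. Libraries were made from poly(A)-selected RNA with a stranded kit.

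FGFs are secreted proteins that bind receptor tyrosine kinases together with heparan sulfate chains on the cell surface, and the active receptors signal through the adaptor FRS2 to the RAS and ERK cascade and to PI3 kinase. FGF2 and FGF18 act near the cells that make them, whereas FGF19 and FGF21 circulate as hormones and need a klotho protein, KLB in liver, to engage their receptors. In hepatocytes FGFR4 with KLB receives FGF19, which restrains bile acid synthesis, and FGF21 is a liver hormone induced by fasting and by cellular stress.

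The libraries held 16970486 to 18209213 counts on genes, and 15406 genes had a count in at least 1 library. Values in CPM, a gene's count divided by the library's total and scaled to a common size, were used to follow 1 gene across libraries, and the deposited FPKM, which also divides by length, to order different genes. The labelled liver origin had little trace in the marker genes: of the hepatocyte markers, ALB, AFP, APOB, TTR and FOXA2 were at 0 counts in all 9 libraries, and the most abundant, ASGR1, had a mean of 0.210 FPKM. The summed level of the whole hepatocyte list was 0.397, 0.845 and 0.779 CPM in untreated MHCC97L, 2.83, 1.77 and 1.76 CPM for MHCC97L-Src and 2.86, 2.40 and 1.75 CPM for MHCC97L-Oxa. SERPINA1 was the only gene of that list that edgeR called in any comparison made here, higher in MHCC97L-Oxa than in MHCC97L (1, 1 and 1 counts in MHCC97L, 31, 14 and 14 in MHCC97L-Oxa, adjusted p = 0.0323), and this call was lost without MHCC97L replicate 3 (adjusted p = 0.160) or MHCC97L-Oxa replicate 1, 2 or 3 (adjusted p = 0.207, 0.165 and 0.152), and with limma at a pseudocount of 1 or 0.1 (adjusted p = 0.220 and 0.0701). It was kept with the offsets (adjusted p = 0.0111), and the log2 fold change was 4.05 without both MHCC97L replicates 1 and 3. With 1 count in each MHCC97L library, SERPINA1 passed the filter on low counts only through the MHCC97L-Oxa libraries. For MHCC97L-Src it had 22, 9 and 10 counts. It failed the filter there with all libraries in the fit, and was called higher without MHCC97L replicate 1 or 2.

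MHCC97L replicates 1 and 3 stood apart from the other 7 libraries. On the first principal component, which held 66.5% of the variance, they scored -144.1 and -46.6, and the others lay between 9.33 and 66.6. Their departures from the mean of all libraries ran against the GC content of genes, with a Spearman's rho across genes of -0.788 in replicate 1 and -0.256 in replicate 3, while the other 7 libraries had values between 0.176 and 0.704. MHCC97L-Src replicate 2 lay at the opposite end, with the highest rho (0.704) and score (66.6). GC content and length held 48.7% of the variance of its departures, beside 66.8% and 20.3% in MHCC97L replicates 1 and 3. Tests of the 6 FGF genes against MHCC97L are therefore given with and without MHCC97L replicates 1 and 3 and with offsets for GC content and gene length, and so are the calls of the pathway lists. Without both, 1 MHCC97L library is left, which the fit assumes to vary like the other line. Over all tested genes, TMM scaling put the median log2 fold change at -0.16 for MHCC97L-Src against MHCC97L and -0.19 for MHCC97L-Oxa against MHCC97L. DESeq2 size factors moved these medians to -0.07 and -0.12, and the GC and length offsets to 0.03 and -0.06. The p-values measure only the spread between these libraries, which may be technical.

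Of the 10 genes, 6 passed the filter on low counts: FGF2, FGF18, FGF21, FGFR1, FGFR3 and FGFR4. FGF5 and KLB had 0 counts in all 9 libraries, which allows up to 3 counts per library, or 0.165 to 0.177 CPM, by counting error alone. FGF19 had 0, 0 and 1 counts in untreated MHCC97L, 0, 0 and 2 for MHCC97L-Src and 0, 3 and 0 for MHCC97L-Oxa, so that no library exceeded this floor. FGFR2 had 9, 0 and 3 counts in untreated MHCC97L, 0, 1 and 2 for MHCC97L-Src and 0 in the 3 MHCC97L-Oxa libraries. Its single value over the floor came from MHCC97L replicate 1, a library that stood apart. No fold change is given for these 4 genes.

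By mean FPKM over the 9 libraries the order was FGFR1 at 7.39, FGFR3 at 5.75, FGFR4 at 5.22, FGF21 at 2.59, FGF2 at 2.09 and FGF18 at 0.423, which are places 4724, 5260, 5507, 7052, 7490 and 10479 among the 20030 genes. The order changed between the lines. In MHCC97L it ran from FGFR3 (7.42 ± 1.49 FPKM, SD, n = 3) through FGFR1 (5.47 ± 0.749), FGFR4 (4.47 ± 0.949) and FGF2 (3.58 ± 2.05) to FGF21 (0.965 ± 0.450) and FGF18 (0.417 ± 0.147). Neighbours in that order had overlapping libraries except FGF2 and FGF21. Within each MHCC97L library, though, FGFR3 was above FGFR1 and FGFR1 above FGFR4. In replicate 1 FGFR4 was below FGF2, and FGF21 below FGF18. In MHCC97L-Src it ran from FGFR1 (7.44 ± 0.365 FPKM) through FGFR4 (6.60 ± 1.34), FGFR3 (4.38 ± 0.554) and FGF21 (2.54 ± 0.319) to FGF2 (0.860 ± 0.234) and FGF18 (0.641 ± 0.288), and here FGFR1 overlapped FGFR4, and FGF2 overlapped FGF18. In MHCC97L-Oxa it ran from FGFR1 (9.27 ± 0.686 FPKM) through FGFR3 (5.44 ± 0.137), FGFR4 (4.59 ± 0.562) and FGF21 (4.27 ± 0.316) to FGF2 (1.84 ± 0.165) and FGF18 (0.210 ± 0.125), and only FGFR4 and FGF21 overlapped. Compared within each library, FGF2 was above FGF18 throughout MHCC97L-Src, and FGFR4 above FGF21 throughout MHCC97L-Oxa.

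**Figure D1:**
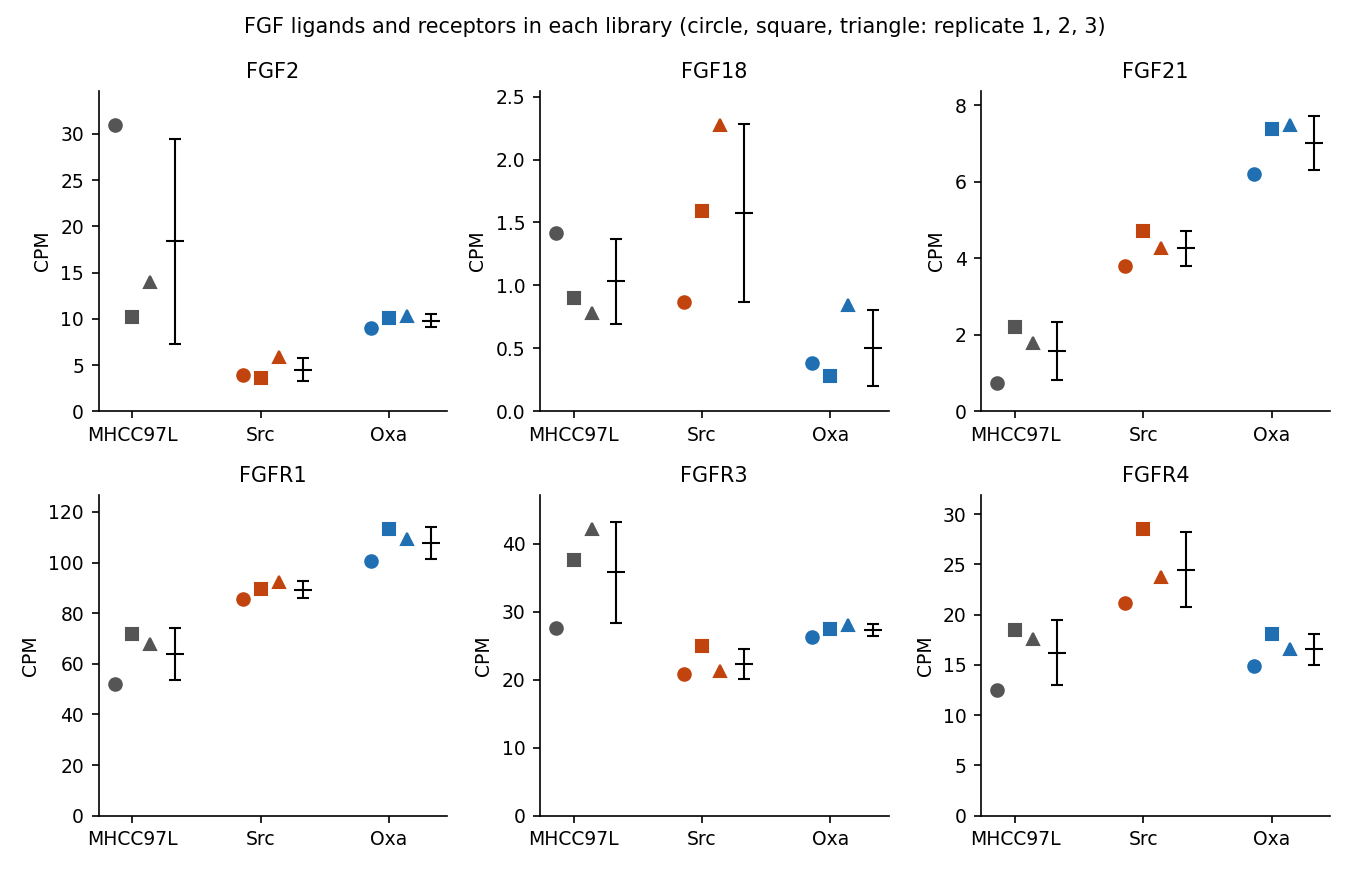
Levels of the 6 genes that passed the filter, in CPM on a linear axis from 0, with 1 symbol per library (circle, square and triangle for replicates 1, 2 and 3) and the mean with its SD over 3 libraries beside each line (Src and Oxa stand for MHCC97L-Src and MHCC97L-Oxa). FGF21 and FGFR1 lay in 3 separate bands, from 0.736 to 7.49 CPM and from 52.1 to 113.2 CPM, and MHCC97L replicate 1 had the highest FGF2 value, 31.0 CPM.

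The comparison of MHCC97L-Src with MHCC97L asks which transcripts differ in cells made resistant to saracatinib. In CPM FGF21, FGFR1 and FGFR4 were higher, and FGF2 and FGFR3 lower, in each MHCC97L-Src library than in each MHCC97L library, and FGF18 overlapped. With TMM library sizes FGFR3 overlapped too. With edgeR (quasi-likelihood, p adjusted over all tested genes, called under 0.05), 0 of the 6 tested genes were called, beside 256 of 12037 genes or 2.13%. At unadjusted p under 0.05 there were 2 of the 6, FGF2 lower and FGF21 higher, beside 3546 of all genes or 29.5%. When an absolute log2 fold change over 1 was also required, FGF2 and FGF21 both passed, beside 24.6% of all genes. DESeq2 called 2, and limma on the log of the deposited FPKM called 0 with a pseudocount of 1 and 0 with 0.1. The median log2 fold change of the 6 was 0.60, beside -0.16 over all genes, and with the offsets 0.33, beside 0.03. The count of all genes rested on single libraries: it was 672, 3419 or 22 without MHCC97L replicate 1, 2 or 3, and 69, 47 or 27 without MHCC97L-Src replicate 1, 2 or 3. Among the 6 genes, 2 were called without MHCC97L replicate 2 and 0 without any other library. With both MHCC97L replicates 1 and 3 left out, 0 of the 6 were called, and with the offsets 1, FGFR3.

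The comparison of MHCC97L-Oxa with MHCC97L asks the same of oxaliplatin resistance and shares the MHCC97L libraries. In CPM FGF21 and FGFR1 were higher in each MHCC97L-Oxa library than in each MHCC97L library, and FGF2, FGF18, FGFR3 and FGFR4 overlapped. With TMM library sizes and in FPKM each MHCC97L-Oxa library was lower for FGF2, and in FPKM also for FGFR3. With edgeR 0 of the 6 were called, beside 115 of 12064 genes or 0.953%. At unadjusted p under 0.05 there were 2, FGF21 and FGFR1, both higher, beside 2708 of all genes or 22.4%. With the added fold threshold 1 passed, FGF21, beside 16.2% of all genes. DESeq2 called 1, limma with a pseudocount of 1 called 1 and with 0.1 called 0. The median of the 6 was -0.18, beside -0.19 over all genes, and with the offsets -0.06, beside -0.06. The count of all genes was 2251, 2705 or 2 without MHCC97L replicate 1, 2 or 3, and 2 without any 1 of the MHCC97L-Oxa libraries. Among the 6 genes, 3 were called without MHCC97L replicate 1 (FGF21, FGFR1 and FGFR3), 2 without MHCC97L replicate 2 (FGF21 and FGFR1) and 0 without any other library. With both MHCC97L replicates 1 and 3 left out, 3 of the 6 were called (FGF21 and FGFR1 higher, FGFR3 lower), beside 2978 of all genes, and with the offsets 1, FGF21.

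The resistant lines were also compared directly, which does not use the MHCC97L libraries. In CPM FGF2, FGF21, FGFR1 and FGFR3 were lower, and FGF18 and FGFR4 higher, in each MHCC97L-Src library than in each MHCC97L-Oxa library. FGFR3 overlapped with TMM library sizes, and FGF18 in FPKM. With edgeR 1 of the 6, FGF2, was called, beside 556 of 11994 genes or 4.64%. At unadjusted p under 0.05 there were 4, FGF2 and FGF21 lower and FGF18 and FGFR4 higher, beside 2340 of all genes or 19.5%. With the added fold threshold 2 passed, FGF2 and FGF18, beside 4.01% of all genes. In this comparison FGF18 passed the filter on low counts only through MHCC97L-Src, the line where it was higher. DESeq2 called 2 (FGF2 and FGFR4), and limma called 1 with a pseudocount of 1 and 0 with 0.1. The median of the 6 was -0.22, beside -0.02 over all genes. Among the 6 genes, 0 were called without MHCC97L-Oxa replicate 1, 2 or 3 or MHCC97L-Src replicate 1, where all genes gave 243, 167, 231 and 208. The counts were 1 of the 6 and 1033 of all genes without MHCC97L-Src replicate 2, and 2 of the 6 and 1617 of all genes without MHCC97L-Src replicate 3. An exact permutation test of 3 libraries against 3 cannot give a two-sided p below 0.1, so separation of the libraries alone is a description.

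**Figure D2:**
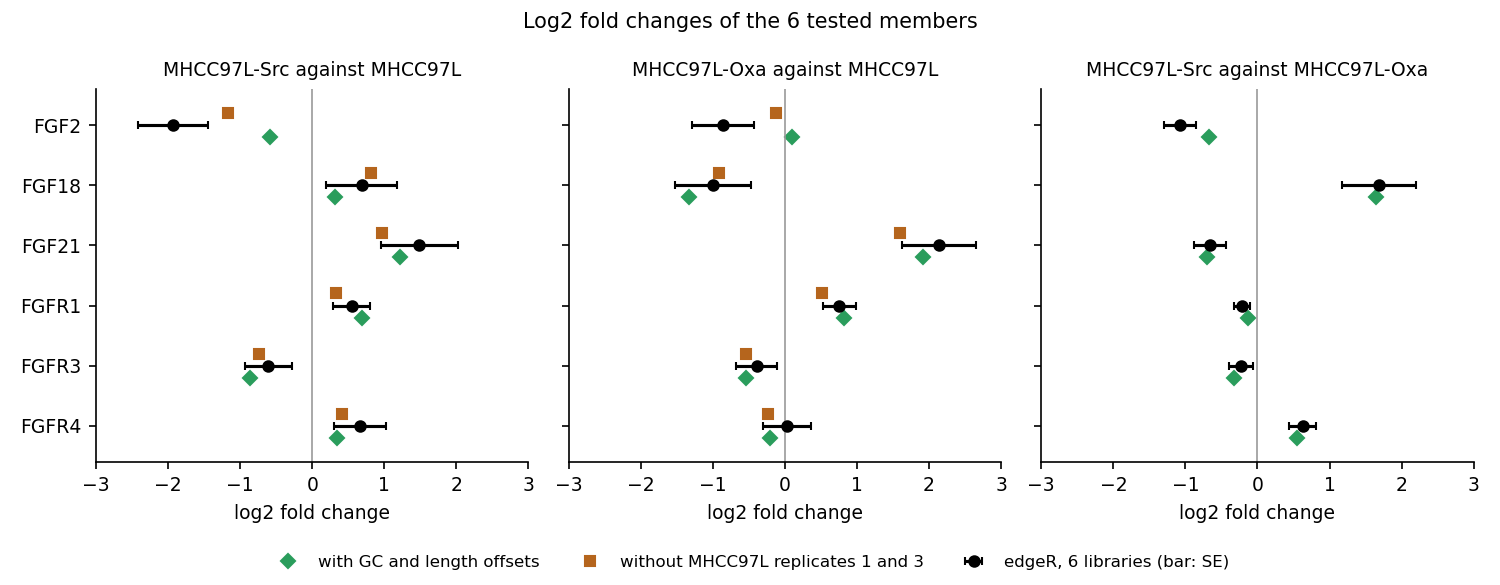
Log2 fold changes (horizontal axis) of the 6 tested genes in the 3 comparisons: black circles with bars are edgeR estimates and their SE from 6 libraries, green diamonds the estimates with GC and length offsets, and brown squares those without MHCC97L replicates 1 and 3. FGF2 moved from -1.93 to -0.59 with the offsets in MHCC97L-Src against MHCC97L, while FGF21 in MHCC97L-Oxa against MHCC97L was at 2.14, 1.92 and 1.60.

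Among the ligands, promoter sequence is shown for FGF2, FGF18 and FGF21, the 3 with transcripts over the floor and the ones past a fold threshold in at least 1 comparison. The RefSeq promoters examined for these genes (GRCh38.p14) were 14 entries for 8 of the 10 genes. Each ran from 250 bases before to 50 bases after a transcript start. FGF19 and FGFR1 are not among the 8, so their promoters are not described here. The motifs searched on both strands were the composite element of ATF4 and C/EBP (TGATGNAA, or TTNCATCA on the other strand), the core bound by TCF and LEF factors (CTTTGAT or ATCAAAG), an AP-1 element (TGANTCA) and, added after the values were seen, the GC box (GGGCGG or CCGCCC). They occur in 3.62%, 2.62%, 7.71% and 45.0% of 35116 promoters. The FGF21 promoter (chr19:48755274-48755573, plus strand) holds 1 composite element, in capitals and read on the reverse strand. The FGF18 promoter (chr5:171419397-171419696, plus strand) holds 1 TCF and LEF core, in capitals. The FGF2 promoter (chr4:122826581-122826880, plus strand) holds 3 GC boxes, in capitals. None of these is particular to its gene: the composite element also occurs in 1 of 5 FGFR2 promoters and the TCF and LEF core in the KLB promoter. Of GC boxes, the FGF18 promoter also holds 3, left in lower case, and the first promoters of FGFR3, FGFR4 and FGFR2 hold 8, 7 and 5. The AP-1 element matched none of the 14, and a match is a description of letters only.
FGF21: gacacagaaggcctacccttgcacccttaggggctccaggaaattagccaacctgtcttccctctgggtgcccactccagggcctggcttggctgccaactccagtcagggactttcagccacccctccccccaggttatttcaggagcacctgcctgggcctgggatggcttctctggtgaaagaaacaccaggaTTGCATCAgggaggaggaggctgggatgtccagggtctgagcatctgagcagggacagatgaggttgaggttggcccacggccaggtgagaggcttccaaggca
FGF18: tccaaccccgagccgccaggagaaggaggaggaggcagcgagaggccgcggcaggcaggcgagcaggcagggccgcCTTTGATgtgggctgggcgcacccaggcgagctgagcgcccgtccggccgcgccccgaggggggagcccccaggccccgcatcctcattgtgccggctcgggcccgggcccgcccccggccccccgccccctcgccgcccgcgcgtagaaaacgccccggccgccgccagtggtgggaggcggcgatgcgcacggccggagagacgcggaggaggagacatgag
FGF2: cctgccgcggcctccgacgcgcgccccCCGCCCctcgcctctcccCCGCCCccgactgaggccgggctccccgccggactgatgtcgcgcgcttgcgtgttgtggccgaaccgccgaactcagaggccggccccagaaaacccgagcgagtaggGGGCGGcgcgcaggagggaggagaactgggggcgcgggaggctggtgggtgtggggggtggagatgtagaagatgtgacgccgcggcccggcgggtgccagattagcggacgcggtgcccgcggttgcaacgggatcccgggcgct

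FGF2, a ligand that drives growth of many cell types and acts close to its source (NCBI gene 2247, chr4:122826708-122898236, plus strand), had 547, 181 and 251 counts in untreated MHCC97L, 69, 62 and 104 for MHCC97L-Src and 164, 181 and 184 for MHCC97L-Oxa. As levels these were 31.0, 10.2 and 14.0 CPM, 3.98, 3.65 and 5.92 CPM, and 9.01, 10.1 and 10.4 CPM. MHCC97L replicate 1 was far above every other library, the 3 MHCC97L-Src libraries were the lowest of all, and the MHCC97L-Oxa libraries lay beside MHCC97L replicate 2. FGF2 was lower in MHCC97L-Src than in MHCC97L-Oxa (log2 fold change -1.07, SE 0.23, adjusted p = 0.0253, edgeR), with a mean of 4.52 ± 1.22 CPM against 9.82 ± 0.716 CPM (SD, n = 3). This call was lost with GC and length offsets (-0.68, adjusted p = 0.0560), with the offsets and the replicate block (adjusted p = 0.137), in the fit of all 9 libraries (adjusted p = 0.501), with limma at a pseudocount of 0.1 (adjusted p = 0.0513), and without MHCC97L-Oxa replicate 1, 2 or 3 (adjusted p = 0.0671, 0.135 and 0.105) or MHCC97L-Src replicate 1 (adjusted p = 0.127). Over all alternatives the adjusted p ran from 0.00143 to 0.501, and the log2 fold change from -1.26 to -0.62.

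Against MHCC97L, the FGF2 estimate was -1.93 (SE 0.49, adjusted p = 0.0837) in MHCC97L-Src. It was -0.59 (adjusted p = 0.311) with the offsets and -1.17 (adjusted p = 0.179) without MHCC97L replicates 1 and 3. FGF2 was called without MHCC97L replicate 2 (-2.13, adjusted p = 0.00549), by DESeq2 (-1.82, adjusted p = 0.00202), without the low-count filter (-1.89, adjusted p = 0.0479) and in the fit of all 9 libraries (-1.93, adjusted p = 0.0159), and the range over alternatives was 0.00202 to 0.409. In MHCC97L-Oxa the estimate was -0.85 (SE 0.43, adjusted p = 0.255), with a change of sign to 0.093 under the offsets (adjusted p = 0.880) and a value of -0.13 without MHCC97L replicates 1 and 3 (adjusted p = 0.700, range over alternatives 0.0889 to 0.880). FGF2 transcripts are poor in G and C (37.5% of the longest). Over the 9 libraries log2 CPM of FGF2 had a Pearson correlation of -0.928 with the library's GC rho, and -0.825 over the 7 libraries without MHCC97L replicates 1 and 3, as a description of points that fall into 3 lines. The same correlations over 9 and over 7 libraries were 0.739 and -0.284 for FGF21, 0.689 and -0.400 for FGFR1, 0.748 and 0.629 for FGFR4, -0.372 and -0.259 for FGFR3, and -0.0996 and 0.269 for FGF18. The part of GC content in the FGF2 values beyond these offsets was not tested.

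**Figure D3:**
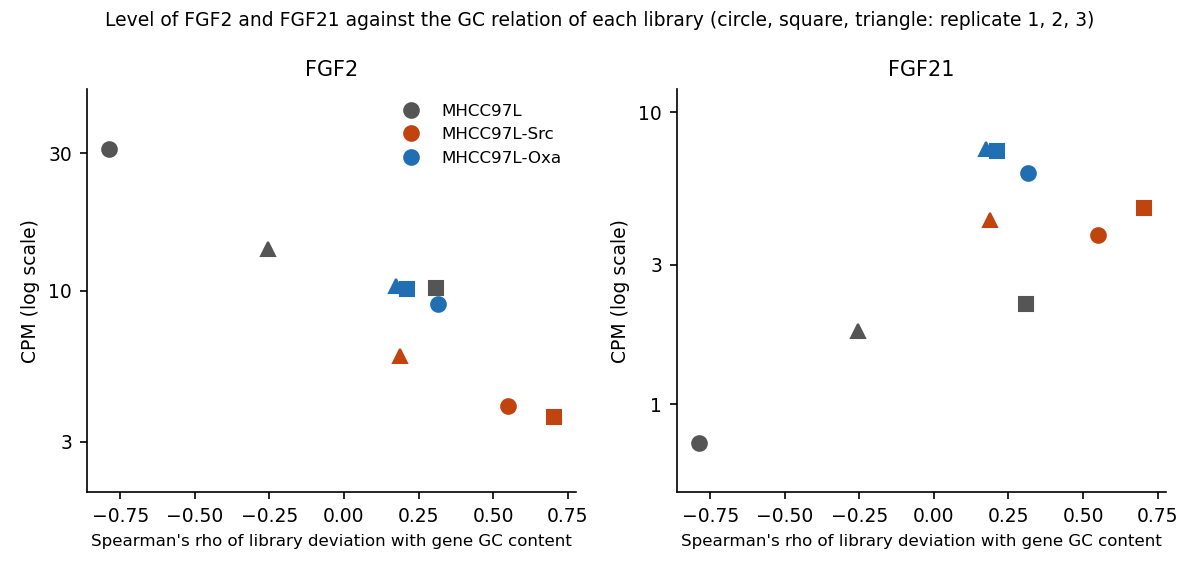
Level of FGF2 (left) and FGF21 (right) in CPM on a log axis against the Spearman's rho between a library's departures from the mean and the GC content of genes, with 1 symbol per library, coloured by line and shaped by replicate. FGF2 went down from 31.0 CPM at a rho of -0.788 to 3.65 CPM at 0.704. FGF21 was lowest, 0.736 CPM, in the library of the lowest rho, and its correlation with the rho was 0.739 over 9 libraries and -0.284 without MHCC97L replicates 1 and 3.

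NUDT6, on the opposite strand, shares 804 of the 6775 exon bases of FGF2 (11.9%). It had 45, 45 and 37 counts in untreated MHCC97L, 37, 37 and 61 for MHCC97L-Src and 52, 47 and 49 for MHCC97L-Oxa, so MHCC97L-Src overlapped both other lines, while in CPM each MHCC97L-Oxa library was above each MHCC97L library. Its log2 fold change was 0.18 in MHCC97L-Src against MHCC97L (adjusted p = 0.783), 0.22 in MHCC97L-Oxa against MHCC97L (adjusted p = 0.711) and -0.03 in MHCC97L-Src against MHCC97L-Oxa (adjusted p = 0.962). Whether counting took strand into account is not stated, so reads on the shared bases cannot be told apart.

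FGF18, a ligand known from skeletal and lung development (NCBI gene 8817, chr5:171419656-171457623, plus strand), had 25, 16 and 14 counts in untreated MHCC97L, 15, 27 and 40 for MHCC97L-Src and 7, 5 and 15 for MHCC97L-Oxa, or 1.42, 0.901 and 0.779 CPM, 0.866, 1.59 and 2.28 CPM, and 0.384, 0.279 and 0.844 CPM. The lowest MHCC97L-Src library was just above the highest MHCC97L-Oxa library, though not in FPKM (0.348 against 0.351), and MHCC97L overlapped both. MHCC97L-Src against MHCC97L-Oxa gave a log2 fold change of 1.69 (SE 0.52, adjusted p = 0.104) and 1.65 with the offsets (adjusted p = 0.0787, range over alternatives 0.0664 to 0.384). Against MHCC97L the estimates were 0.68 in MHCC97L-Src (adjusted p = 0.365) and -1.0 in MHCC97L-Oxa (adjusted p = 0.269), and without MHCC97L replicates 1 and 3 they were 0.81 (adjusted p = 0.663) and -0.91 (adjusted p = 0.416). With the offsets they were 0.32 (adjusted p = 0.708) and -1.32 (adjusted p = 0.171). No alternative called FGF18 in any of the 3 comparisons, where the lowest adjusted p was 0.322, 0.171 and 0.0664. Between the resistant lines FGF18 passed the filter on low counts only through MHCC97L-Src, and in MHCC97L-Oxa against MHCC97L only through MHCC97L.

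FGF21, the stress-induced metabolic hormone (NCBI gene 26291, chr19:48755559-48758333, plus strand), had 13, 39 and 32 counts in untreated MHCC97L, 66, 80 and 75 for MHCC97L-Src and 113, 132 and 133 for MHCC97L-Oxa. As levels these were 0.736, 2.2 and 1.78 CPM, 3.81, 4.71 and 4.27 CPM, and 6.21, 7.37 and 7.49 CPM. The lines formed 3 groups without overlap, with MHCC97L lowest and MHCC97L-Oxa highest. Mean levels were 1.57 ± 0.753, 4.26 ± 0.453 and 7.02 ± 0.707 CPM (SD, n = 3), ratios to MHCC97L of 2.71 and 4.47.

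In MHCC97L-Oxa against MHCC97L the FGF21 log2 fold change was 2.14 (SE 0.51, adjusted p = 0.103), higher in 3 of 3 libraries. It was called with the offsets (1.92, adjusted p = 0.0128) and without MHCC97L replicates 1 and 3 (1.60, adjusted p = 0.00924). Leaving out MHCC97L replicate 1 alone (1.87, adjusted p = 0.00919) or replicate 2 alone (2.58, adjusted p = 0.0140) also gave a call, as did DESeq2 (2.21, adjusted p = 0.00079), limma at a pseudocount of 1 on all genes (1.45, adjusted p = 0.0380) or on those of at least 1 mean FPKM (adjusted p = 0.0295), the offsets with the replicate block (1.97, adjusted p = 0.0243) and the fit of all 9 libraries (adjusted p = 0.0275). The range over alternatives was 0.00079 to 0.424 for the adjusted p and 1.45 to 2.58 for the log2 fold change. In MHCC97L-Src the estimate was 1.49 (SE 0.53, adjusted p = 0.126), 1.22 with the offsets (adjusted p = 0.0687) and 0.97 without MHCC97L replicates 1 and 3 (adjusted p = 0.368). It was called without MHCC97L replicate 2 (1.90, adjusted p = 0.0262), by DESeq2 (1.58, adjusted p = 0.0357) and in the fit of all 9 libraries (adjusted p = 0.0470), with a range from 0.0262 to 0.368. Between the resistant lines FGF21 had a log2 fold change of -0.66 (SE 0.22, adjusted p = 0.136, range over alternatives 0.0376 to 0.994), called with limma on genes of at least 1 mean FPKM (-0.58, adjusted p = 0.0376).

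Genes of the stress and fasting responses known to accompany FGF21 induction were all expressed. Of 8 listed, 8 were tested and edgeR called 0 in each comparison. At unadjusted p under 0.05 there were 4 higher in MHCC97L-Src, 4 higher in MHCC97L-Oxa and 1 lower between the resistant lines. Of all genes 29.5%, 22.4% and 19.5% passed this threshold, and the same counts of the other lists are to be read beside these shares. DESeq2 called 4, 3 and 0, and limma called 0, 2 and 0 with a pseudocount of 1 and 1, 1 and 0 with 0.1. Median log2 fold changes were 0.52, 0.70 and -0.05, and 0.68, 0.70 and -0.09 with the offsets. Without MHCC97L replicate 1 the calls were 4 in MHCC97L-Src and 6 in MHCC97L-Oxa, and without replicate 2 they were 4 and 4. Without both replicates 1 and 3 they were 0 and 6, beside 228 of 12386 and 2978 of 12362 of all genes, and with the offsets 3 and 5, beside 963 of 12037 and 1057 of 12064. The counts for all genes without replicate 1 or 2 are given above, and the calls of every list in these fits are to be read beside those of all genes. Between the resistant lines 1 was called without MHCC97L-Src replicate 3. ATF4, a transcription factor of the stress response and the most abundant of the list at 139.9 FPKM, had 11983, 17181 and 16489 counts in untreated MHCC97L, 25370, 24393 and 25098 for MHCC97L-Src and 25613, 27796 and 27975 for MHCC97L-Oxa. Both resistant lines were above MHCC97L in every library, with log2 fold changes of 0.82 (adjusted p = 0.111) and 0.82 (adjusted p = 0.159), which were 0.58 (adjusted p = 0.0562) and 0.61 (adjusted p = 0.0246) with the offsets, and 0.59 (adjusted p = 0.288) and 0.57 (adjusted p = 0.00174) without MHCC97L replicates 1 and 3. Its target TRIB3, at 45.3 FPKM, was likewise higher in every library of both resistant lines, with log2 fold changes of 1.30 (adjusted p = 0.0736) and 1.07 (adjusted p = 0.137), which were 1.02 (adjusted p = 0.0129) and 0.85 (adjusted p = 0.0206) with the offsets, and 1.06 (adjusted p = 0.0877) and 0.81 (adjusted p = 0.000669) without these replicates. With the replicate block TRIB3 was called in MHCC97L-Src (1.36, adjusted p = 0.00955) and not in MHCC97L-Oxa (adjusted p = 0.137).

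Of 17 other FGF ligands, 14 were at or under the floor of 3 counts in all 9 libraries and 9 of these were at 0. FGF11, which belongs to the FGF-like proteins that stay inside the cell, was the most abundant at 6.15 FPKM. It had 237, 292 and 297 counts in untreated MHCC97L, 420, 474 and 328 for MHCC97L-Src and 696, 627 and 629 for MHCC97L-Oxa. The 3 lines did not overlap, with MHCC97L lowest. In MHCC97L-Oxa against MHCC97L it had a log2 fold change of 1.23 (adjusted p = 0.0893), which was 1.11 with the offsets (adjusted p = 0.00853) and 1.06 without MHCC97L replicates 1 and 3 (adjusted p = 0.00179). In MHCC97L-Src it was 0.69 (adjusted p = 0.226), 0.57 with the offsets (adjusted p = 0.211) and 0.54 without these replicates (adjusted p = 0.593). Of the 17, edgeR tested 2, 1 and 1 in the 3 comparisons and called 0, with 0, 1 and 1 at unadjusted p under 0.05, and 0, 1 and 0 by DESeq2 and by limma with either pseudocount. With the offsets, and without both MHCC97L replicates 1 and 3, 0 were called in MHCC97L-Src and 1 in MHCC97L-Oxa, FGF11. FGF17 was called in MHCC97L-Src without MHCC97L replicate 2, and FGF11 in MHCC97L-Oxa without MHCC97L replicate 1 or 2, and between the resistant lines without MHCC97L-Src replicate 2. Without MHCC97L replicate 2, FGF17 passed the filter on low counts only through MHCC97L-Src.

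Of the receptors, FGFR1, the receptor kinase typical of mesenchymal cells (NCBI gene 2260, minus strand), had 920, 1272 and 1216 counts in untreated MHCC97L, 1486, 1521 and 1623 for MHCC97L-Src and 1833, 2029 and 1941 for MHCC97L-Oxa. These were 52.1, 71.7 and 67.6 CPM, 85.7, 89.6 and 92.3 CPM, and 100.7, 113.2 and 109.2 CPM. As for FGF21, the 3 lines did not overlap, MHCC97L was lowest and MHCC97L-Oxa highest. Its log2 fold change in MHCC97L-Oxa was 0.76 (SE 0.23, adjusted p = 0.167), and 0.82 with the offsets (adjusted p = 0.0819). It was called without MHCC97L replicates 1 and 3 (0.51, adjusted p = 0.00896), without replicate 1 (0.68, adjusted p = 0.00581) and without replicate 2 (0.97, adjusted p = 0.0364), with a range from 0.00581 to 0.474. In MHCC97L-Src it was 0.55 (SE 0.25, adjusted p = 0.184), 0.70 with the offsets (adjusted p = 0.165) and 0.33 without MHCC97L replicates 1 and 3 (adjusted p = 0.642, range over alternatives 0.0682 to 0.642). Between the resistant lines it was -0.22 (SE 0.11, adjusted p = 0.315).

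FGFR3, a receptor found mainly on epithelial cells and cartilage (NCBI gene 2261, chr4:1793293-1808872, plus strand), had 487, 669 and 758 counts in untreated MHCC97L, 362, 423 and 374 for MHCC97L-Src and 479, 492 and 499 for MHCC97L-Oxa. These were 27.6, 37.7 and 42.2 CPM, 20.9, 24.9 and 21.3 CPM, and 26.3, 27.5 and 28.1 CPM. MHCC97L-Src was below both other lines in every library, and MHCC97L replicate 1 lay among the MHCC97L-Oxa libraries. This depends on the scale: with TMM library sizes MHCC97L-Src replicate 2 was at 28.0 CPM, above MHCC97L replicate 1 (24.1 CPM) and 2 of the MHCC97L-Oxa libraries (26.7 and 27.3 CPM). MHCC97L-Src against MHCC97L gave a log2 fold change of -0.61 (SE 0.33, adjusted p = 0.233), called with the offsets (-0.87, adjusted p = 0.0287) and not without MHCC97L replicates 1 and 3 (-0.74, adjusted p = 0.338, range over alternatives 0.0287 to 0.593). MHCC97L-Oxa against MHCC97L gave -0.39 (SE 0.28, adjusted p = 0.391), and -0.54 with the offsets (adjusted p = 0.0773). It was called without MHCC97L replicates 1 and 3 (-0.54, adjusted p = 0.0179) and without replicate 1 (-0.49, adjusted p = 0.0252), with a range from 0.0179 to 0.668. For MHCC97L-Src against MHCC97L-Oxa FGFR3 had a value of -0.23 (SE 0.16, adjusted p = 0.476), -0.33 with the offsets (adjusted p = 0.123), and no alternative called it (range 0.0904 to 0.999).

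FGFR4, the main FGF receptor of hepatocytes (NCBI gene 2264, chr5:177086886-177098144, plus strand), had 221, 329 and 316 counts in untreated MHCC97L, 367, 484 and 418 for MHCC97L-Src and 272, 324 and 295 for MHCC97L-Oxa. These were 12.5, 18.5 and 17.6 CPM, 21.2, 28.5 and 23.8 CPM, and 14.9, 18.1 and 16.6 CPM. MHCC97L-Src was above both other lines in every library, and MHCC97L and MHCC97L-Oxa overlapped. MHCC97L-Src against MHCC97L-Oxa gave a log2 fold change of 0.63 (SE 0.19, adjusted p = 0.0942), called with the offsets (0.55, adjusted p = 0.0392), by DESeq2 (0.65, adjusted p = 0.0351) and without MHCC97L-Src replicate 3 (0.71, adjusted p = 0.0303), with a range from 0.0303 to 0.717. Against MHCC97L the estimate in MHCC97L-Src was 0.66 (SE 0.36, adjusted p = 0.240), 0.34 with the offsets (adjusted p = 0.327) and 0.42 without MHCC97L replicates 1 and 3 (adjusted p = 0.667, range over alternatives 0.108 to 0.667). In MHCC97L-Oxa it was 0.03 (SE 0.33, adjusted p = 0.961), with a change of sign to -0.21 with the offsets (adjusted p = 0.463), -0.24 without MHCC97L replicates 1 and 3 (adjusted p = 0.358) and -0.074 without replicate 1 (range over alternatives 0.358 to 0.986).

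The make-up of the receptors differed between the lines more than their sum. Summed over the 4 receptors the level was 17.4 ± 3.03 FPKM in untreated MHCC97L, 18.4 ± 1.98 for MHCC97L-Src and 19.3 ± 1.31 for MHCC97L-Oxa (SD, n = 3), and the means lay within 1 SD of MHCC97L. FGFR3 held 42.6% ± 2.48 of this sum in untreated MHCC97L, 23.8% ± 1.83 for MHCC97L-Src and 28.2% ± 1.33 for MHCC97L-Oxa. FGFR1 held 31.7% ± 1.73, 40.6% ± 3.50 and 48.0% ± 0.873 in the same order. FGFR4 held 25.6% ± 1.69, 35.6% ± 3.43 and 23.8% ± 1.56, and FGFR2 at most 0.134% on average. FGFR3 was thus the largest share in each MHCC97L library, replicates 1 and 3 included, and FGFR1 the largest in each MHCC97L-Oxa library. In MHCC97L-Src FGFR1 was the largest in replicates 1 and 3 and FGFR4 in replicate 2, at 38.9% against 36.6%. The ratio of FGFR1 to FGFR3, both in FPKM, was 0.801, 0.777 and 0.658 in untreated MHCC97L, 1.70, 1.49 and 1.96 for MHCC97L-Src and 1.61, 1.74 and 1.76 for MHCC97L-Oxa. It was thus under 1 in 3 of 3 MHCC97L libraries and over 1 in the other 6. With 3 libraries per line these shares are described without a test.

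**Figure D4:**
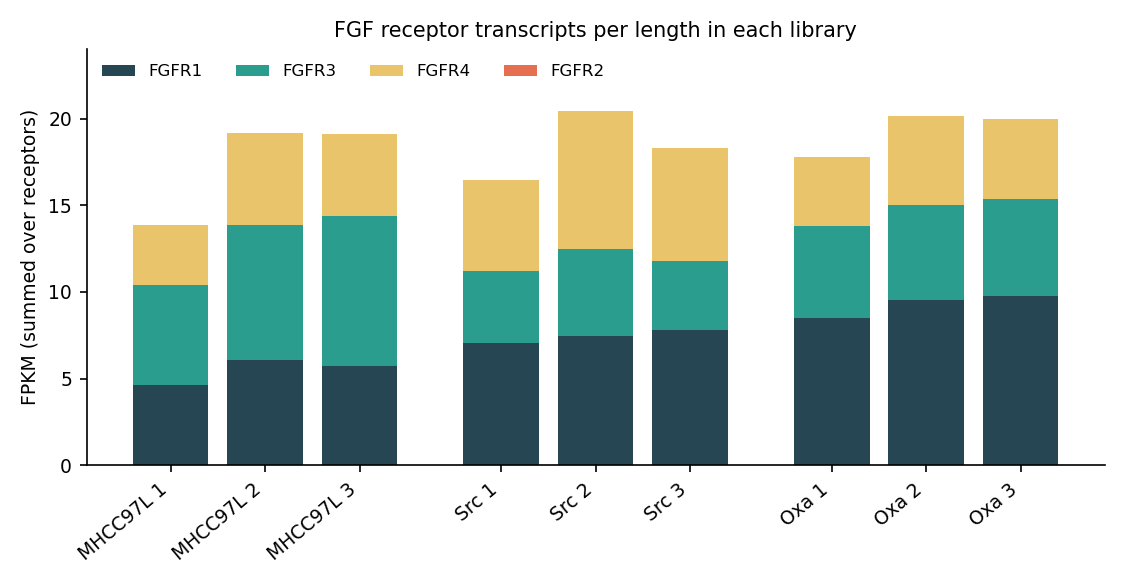
FPKM of FGFR1, FGFR3, FGFR4 and FGFR2, stacked in 1 bar per library from 0 (vertical axis: FPKM summed over the 4 receptors). The bars reach similar heights, with line means of 17.4, 18.4 and 19.3 FPKM, while FGFR3 takes 42.6% of the bar on average in untreated MHCC97L, 23.8% for MHCC97L-Src and 28.2% for MHCC97L-Oxa, and FGFR2 (at most 0.0459 FPKM) is too small to see.

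KLB, the co-receptor for FGF19 and FGF21 (NCBI gene 152831, chr4:39406853-39451536, plus strand), and KL, the related klotho, were both at 0 counts in all 9 libraries, so neither was detectable at this depth in a line with FGF21 and FGFR4 transcripts. Of 9 listed genes of the bile acid axis that FGF19 regulates, 7 were at or under the floor and 5 (CYP7A1, CYP8B1, NR1H4, SLC10A1 and SLC51A) were at 0. The most abundant, CYP27A1, had a mean of 0.0559 FPKM, and none of the 9 was tested. FGF19 lies in the 11q13 region amplified in some liver cancers (NCBI gene 9965, chr11:69698232-69704642, minus strand). Of 10 neighbouring genes that were measured, 7 were tested, with FADD at 35.0 and CTTN at 28.4 FPKM. edgeR called 0 of them in each comparison, with 2, 3 and 0 at unadjusted p under 0.05, 2, 2 and 0 by DESeq2 and 0 by limma with either pseudocount. Without MHCC97L replicate 2, 2 were called in MHCC97L-Src, and without replicate 1 or 2, 2 were called in MHCC97L-Oxa. Without both replicates 1 and 3 the calls were 0 and 1, and with the offsets 2 and 2. With the replicate block MYEOV, named after its values were seen, was called in MHCC97L-Src (2.79, adjusted p = 0.00687), as it was with the offsets (2.55, adjusted p = 0.0239) but not without MHCC97L replicates 1 and 3 (2.12). MYEOV had 1, 6 and 5 counts in untreated MHCC97L and 33, 24 and 20 for MHCC97L-Src. In this comparison it thus passed the filter on low counts only through MHCC97L-Src, the line where it was higher.

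Of 10 other co-receptors and FGF-binding proteins 5 were tested and edgeR called 0 in each comparison. At unadjusted p under 0.05 there were 3 in MHCC97L-Src, 2 in MHCC97L-Oxa and 1 between the resistant lines, DESeq2 called 1, 0 and 0, and limma called 0 with either pseudocount. Without MHCC97L replicate 2 the calls were 2 in MHCC97L-Src and 1 in MHCC97L-Oxa, and without MHCC97L-Src replicate 3 there was 1 between the resistant lines. Without both MHCC97L replicates 1 and 3 there were 0 and 1 (FGFRL1), with the offsets 1 and 0, and with the replicate block FGFBP3, named after its values were seen, was called in MHCC97L-Src (2.16, adjusted p = 0.0363). It was the gene called with the offsets (2.08, adjusted p = 0.0236), and not without these replicates (2.18). FGFBP3 had 4, 5 and 7 counts in untreated MHCC97L and 26, 21 and 20 for MHCC97L-Src. In this comparison it thus passed the filter on low counts only through MHCC97L-Src. FGFRL1, an FGF receptor that lacks the kinase domain, was the most abundant at 15.7 FPKM, above each of the 4 kinase receptors. Its counts were 1183, 1910 and 1979 in untreated MHCC97L, 1534, 1762 and 1364 for MHCC97L-Src and 1684, 1634 and 1598 for MHCC97L-Oxa. The lines overlapped, and the log2 fold changes were -0.01, -0.06 and 0.04 in the 3 comparisons (adjusted p = 0.986, 0.898 and 0.907). Against MHCC97L they were -0.31 and -0.26 with the offsets (adjusted p = 0.351 and 0.350). Without MHCC97L replicates 1 and 3 they were -0.24 (adjusted p = 0.779) and -0.31 (adjusted p = 0.0405), and the latter was a call, lower in MHCC97L-Oxa.

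Heparan sulfate, the sugar chain that FGFs need for receptor binding, was covered by 17 genes, of which 12 were tested. SULF2, an extracellular enzyme that removes sulfate groups from heparan sulfate, rose in MHCC97L-Src. It had 163, 191 and 102 counts in untreated MHCC97L, 1173, 933 and 1391 for MHCC97L-Src and 550, 508 and 525 for MHCC97L-Oxa. The 3 lines did not overlap, with MHCC97L-Src highest. In MHCC97L-Src against MHCC97L the log2 fold change was 3.03 (SE 0.34, adjusted p = 0.00693), 3.06 with the offsets (adjusted p = 0.000653) and 2.65 without MHCC97L replicates 1 and 3 (adjusted p = 0.00594), and it was called under all 17 alternatives (highest adjusted p = 0.0458). In MHCC97L-Src against MHCC97L-Oxa it was 1.24 (adjusted p = 0.000942), called without each of the 6 libraries in turn and not called in the fit of all 9 (adjusted p = 0.0758). In MHCC97L-Oxa against MHCC97L it was 1.79 (adjusted p = 0.0623), 1.80 with the offsets (adjusted p = 0.00844) and 1.37 without MHCC97L replicates 1 and 3 (adjusted p = 0.000811).

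Of the same 12 tested genes, edgeR called 1 in MHCC97L-Src against MHCC97L, 0 in MHCC97L-Oxa against MHCC97L and 2 between the resistant lines. Of all genes it called 2.13%, 0.953% and 4.64%. For MHCC97L-Oxa there were 4 at unadjusted p under 0.05, beside 22.4% of all genes. DESeq2 called 1 there, and limma called 1 and 0 with pseudocounts of 1 and 0.1. Without MHCC97L replicate 1 or 2 the calls were 2 or 4 in MHCC97L-Src and 6 or 3 in MHCC97L-Oxa, without both replicates 1 and 3 they were 1 and 6, and with the offsets 3 and 3. The other gene called between the resistant lines was HS6ST1, which adds sulfate to heparan sulfate, with 2529, 2656 and 2538 counts in MHCC97L-Src, 1923, 2061 and 1797 in MHCC97L-Oxa and 1137, 1892 and 1728 in MHCC97L. MHCC97L-Src was above the other lines in every library (log2 fold change 0.53, SE 0.12, adjusted p = 0.0308, against MHCC97L-Oxa). This call was lost without MHCC97L-Oxa replicate 1, 2 or 3 (adjusted p = 0.130, 0.135 and 0.183) or MHCC97L-Src replicate 1 (adjusted p = 0.158), with the replicate block (adjusted p = 0.0702), with block and offsets (adjusted p = 0.0687) and in the fit of all 9 libraries (adjusted p = 0.665), with a range over alternatives from 0.00816 to 0.665. Without any 1 of those 4 libraries SULF2 alone was called. Without MHCC97L-Src replicate 2 or 3 there were 4. The median log2 fold changes of the 12 were 0.17, 0.27 and 0.01, and with the offsets 0.37, 0.17 and 0.09. Syndecans were the most abundant carriers, SDC4 at 100.3 and SDC1 at 60.2 FPKM, and GPC3, a proteoglycan often high in hepatocellular carcinoma, was at or under the floor.

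Of 26 genes that relay the signal from the receptor, 25 were tested and edgeR called 0 in each comparison. At unadjusted p under 0.05 there were 9, 6 and 6 in MHCC97L-Src, in MHCC97L-Oxa and between the resistant lines, beside 29.5%, 22.4% and 19.5% of all genes, DESeq2 called 5, 1 and 1, and limma called 0 with either pseudocount. The medians were -0.46, -0.42 and -0.15, beside -0.16, -0.19 and -0.02 for all tested genes, a difference that was smaller or absent in other fits. With the offsets the medians were -0.03, -0.08 and 0.01, beside 0.03, -0.06 and 0.08, and without MHCC97L replicates 1 and 3 the 2 comparisons with MHCC97L gave -0.04 and 0.11, beside 0.04 and 0.03. Without MHCC97L replicate 2 the calls were 11 in MHCC97L-Src and 8 in MHCC97L-Oxa, beside 3419 of 12288 and 2705 of 12256 of all genes, without replicate 1 they were 0 and 3, without both replicates 1 and 3 they were 0 and 5, beside 228 and 2978 of all genes, and with the offsets 0 and 1. Between the resistant lines 3 were called without MHCC97L-Src replicate 3. SHC1 (142.0 FPKM) and MAP2K2 (93.1 FPKM) were the most abundant. FRS2, the adaptor that docks on FGF receptors and was named after its values were seen, had 437, 24 and 124 counts in untreated MHCC97L, 23, 17 and 26 for MHCC97L-Src and 33, 46 and 127 for MHCC97L-Oxa. MHCC97L replicate 1 stood far above all other libraries. Its log2 fold change in MHCC97L-Src against MHCC97L was -2.98 (adjusted p = 0.105), -1.06 with the offsets (adjusted p = 0.133) and -0.087 without MHCC97L replicates 1 and 3. With the replicate block it was called (-2.27, adjusted p = 0.0346), as were PTPN11 and NRAS, named after their values were seen (-1.88 and -1.91, adjusted p = 0.00105 and 0.00601), in a fit that called 988 of all genes. With the offsets PTPN11 and NRAS were at -0.86 and -0.73 (adjusted p = 0.160 and 0.121), and without MHCC97L replicates 1 and 3 at 0.0045 and -0.55 (adjusted p = 0.997 and 0.634), so neither was called.

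Of 17 listed feedback and target genes of the ERK cascade, edgeR called 7 of 15 tested higher in MHCC97L-Src (median 1.03), beside 2.13% of all genes called, and 4 of 16 tested higher in MHCC97L-Oxa (median 0.96), beside 0.953%. In MHCC97L-Src the 6 with the smallest p were DUSP4 (2.36, adjusted p = 0.00822, range over alternatives up to 0.0568), ETV5 (2.17, adjusted p = 0.00921, up to 0.0614), ETV4 (2.33, adjusted p = 0.0153, up to 0.0638), SPRY4 (2.55, adjusted p = 0.03, up to 0.142), SPRY1 (2.42, adjusted p = 0.0344, up to 0.151) and DUSP5 (2.15, adjusted p = 0.0441, up to 0.167). In MHCC97L-Oxa they were ETV5 (2.34, adjusted p = 0.00898, up to 0.117), ETV4 (2.10, adjusted p = 0.0323, up to 0.222), DUSP4 (1.61, adjusted p = 0.0428, up to 0.352) and SPRY4 (2.22, adjusted p = 0.0489, up to 0.290). With the replicate block DUSP4 and SPRY4 lost the call in MHCC97L-Oxa (adjusted p = 0.0773 and 0.102). DUSP6 was the other gene called in MHCC97L-Src (3.85, adjusted p = 0.0471, up to 0.173), and the block called it in MHCC97L-Oxa (adjusted p = 0.0375). DUSP6 had 10, 11 and 2 counts in untreated MHCC97L, 103, 34 and 186 for MHCC97L-Src and 68, 125 and 56 for MHCC97L-Oxa. Against MHCC97L it thus passed the filter on low counts only through the resistant line. ETV5 had 486, 633 and 456 counts in untreated MHCC97L, 2335, 1729 and 2567 for MHCC97L-Src and 2639, 2954 and 2454 for MHCC97L-Oxa, and its log2 fold changes were 2.46 and 2.53 with the offsets, and 1.84 and 1.99 without MHCC97L replicates 1 and 3. The counts of called genes were 7 and 10 without MHCC97L replicate 1, 9 and 8 without replicate 2, 0 and 0 without replicate 3, 5 and 9 without both replicates 1 and 3, and 10 and 8 with the offsets, to be read beside the counts for all genes given above for the same fits. The medians were 1.40 and 1.18 with the offsets, and 1.30 and 0.81 without both replicates 1 and 3. The numbers of genes called were 3, 2 and 0 in MHCC97L-Src without MHCC97L-Src replicate 1, 2 or 3. In MHCC97L-Oxa 0 were called without any 1 of the MHCC97L-Oxa libraries. DUSP4 (0.75, adjusted p = 0.0101, range over alternatives 0.000146 to 0.214) and DUSP5 (0.81, adjusted p = 0.0167, range 0.000183 to 0.642) were called higher in MHCC97L-Src than in MHCC97L-Oxa. ERK is also fed by other receptors, and the part of FGF signalling in these values was not tested.

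Markers of cell types that the culture should lack were also measured. The summed level of 9 fibroblast markers was 612.5, 736.9 and 756.1 CPM in untreated MHCC97L, 429.6, 447.1 and 409.2 CPM for MHCC97L-Src and 555.3, 582.6 and 577.5 CPM for MHCC97L-Oxa. THY1, the most abundant at 60.6 FPKM, made up most of this sum (a mean of 520.8 CPM in untreated MHCC97L), while ACTA2 and COL1A1, named after their values were seen, had their lowest mean there (6.99 and 62.5 CPM). COL1A2 and PDGFRA were at or under the floor in all libraries, and COL3A1 had a mean of 0.0445 FPKM. The others were expressed, with means of 8.49 FPKM for COL1A1, 7.28 for DCN, 3.11 for ACTA2, 2.94 for PDGFRB and 1.59 for LUM. Between the resistant lines 2 of 6 tested fell in MHCC97L-Src, DCN (log2 fold change -1.89, adjusted p = 0.00294) and PDGFRB (-1.32, adjusted p = 0.00395), each called under 15 of 16 alternatives and not in the fit of all 9 libraries (adjusted p = 0.111 and 0.0870, the highest for each). Against MHCC97L edgeR called 0 and 0 of the 6, with 3 lower in MHCC97L-Src and 1 higher in MHCC97L-Oxa at unadjusted p under 0.05, 3 and 0 by DESeq2 and 0 by limma with either pseudocount. Without MHCC97L replicate 1 the calls were 2 and 4, without replicate 2 they were 3 and 0, without both replicates 1 and 3 they were 1 and 3, and with the offsets 2 and 0. With the replicate block DCN was called lower in MHCC97L-Src (-1.85, adjusted p = 0.00321), as was LUM, named after its values were seen (-2.48, adjusted p = 0.0116). Neither was called with the offsets (-0.66 and -1.15, adjusted p = 0.327 and 0.0812) or without MHCC97L replicates 1 and 3 (-1.31 and -1.41). The genes called lower in MHCC97L-Src against MHCC97L with the offsets were PDGFRB (-1.59, adjusted p = 0.00698) and THY1 (-0.79, adjusted p = 0.0451). PDGFRB and THY1 were at -1.66 and -0.82 without these replicates, and the replicate block called neither (adjusted p = 0.0606 and 0.322). In bulk RNA fewer cells of a type and less RNA per cell cannot be told apart, and the part of these genes in the FGF results was not tested.

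The 6 endothelial markers summed to 2.61, 2.65 and 2.23 CPM in untreated MHCC97L, 11.9, 13 and 15.6 CPM for MHCC97L-Src and 1.43, 1.73 and 1.80 CPM for MHCC97L-Oxa. CDH5, their most abundant at 0.652 FPKM, had 17, 28 and 22, 188, 196 and 236, and 8, 12 and 7 counts in these lines, and rose in MHCC97L-Src against MHCC97L (3.30, adjusted p = 0.0139) and against MHCC97L-Oxa (4.61, adjusted p = 1.7e-05). In the second of these comparisons CDH5 passed the filter on low counts only through MHCC97L-Src. The first call was lost without MHCC97L replicate 3 (adjusted p = 0.0823) or MHCC97L-Src replicate 2 or 3 (adjusted p = 0.0535 and 0.0686). It was called without both MHCC97L replicates 1 and 3 (2.92, adjusted p = 0.0128) and with the offsets (3.21, adjusted p = 0.000893). Of the other endothelial markers, KDR and CLDN5 were at 0 in all 9 libraries. PECAM1, named after its values were seen, had 29, 15 and 16 counts in untreated MHCC97L, 15, 21 and 39 for MHCC97L-Src and 16, 17 and 24 for MHCC97L-Oxa. The 6 leukocyte markers summed to 49.7, 74.8 and 80.5 CPM in untreated MHCC97L, 92.1, 95.5 and 77.5 CPM for MHCC97L-Src and 148.2, 149.9 and 151.3 CPM for MHCC97L-Oxa, nearly all of it CD68, a lysosomal protein that tumour cells also make (26.9 FPKM). PTPRC, CD3E, LYZ and MS4A1 were at 0 in all 9 libraries. CD14 was called higher in MHCC97L-Src (2.58, adjusted p = 0.0236) and in MHCC97L-Oxa (2.24, adjusted p = 0.0428) than in MHCC97L, and neither call held without MHCC97L replicate 3 (adjusted p = 0.115 and 0.164) or without any 1 library of the resistant line (lowest adjusted p = 0.105 and 0.257). The call in MHCC97L-Oxa was also lost with the replicate block (adjusted p = 0.102). With the offsets CD14 was called in both (adjusted p = 0.00291 and 0.00682), and without both MHCC97L replicates 1 and 3 it was at 2.52 and 2.15. CD68 was at 1.11 in MHCC97L-Oxa against MHCC97L (adjusted p = 0.0961), 0.91 with the offsets (adjusted p = 0.0132) and 0.90 without these replicates. The replicate block did not call it (adjusted p = 0.119). In MHCC97L-Src against MHCC97L CD68 was at 0.36 (adjusted p = 0.419), and 0.16 with the offsets (adjusted p = 0.652). The part of either list in the FGF results was not tested.

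The 2 genes most like each of the 6 measured FGF genes were sought among 11023 genes with at least 10 counts in every library, by the Pearson correlation of log2 CPM over the 9 libraries. FGF21 was most like FGFR1 (r = 0.995) and PLAUR (r = 0.994), and FGFR1 was most like FGF21 and MMP2 (r = 0.990). Without MHCC97L replicates 1 and 3 the correlation of FGF21 with FGFR1 was 0.986 over 7 libraries. FGF2 was most like EMC2 (r = 0.993) and OLR1 (r = 0.983), whose transcripts are 32.5% and 45.0% G and C. FGFR3 was most like TNFRSF12A (r = 0.988) and TP53I3 (r = 0.985), FGFR4 most like CPZ (r = 0.967) and AMDHD2 (r = 0.959), and FGF18 most like EGFLAM (r = 0.839) and MEOX1 (r = 0.838). These are descriptions over 9 points from 3 lines, which share libraries, depth and base composition, and carry no p.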

How the data were processed

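RNA from cultured cells was sequenced in 9 libraries, 3 each of MHCC97L, MHCC97L-Src and MHCC97L-Oxa, grouped by the labels. By the submitters' processing notes, reads were trimmed with Trimmomatic 0.36 and aligned with HISAT2 2.2.1.0 to GRCh38.p12. The counting program, and whether it used the strand that the TruSeq Stranded mRNA kit keeps, are not given in the sources used here, so overlapping genes on opposite strands cannot be told apart. The authors deposited a table of raw count values per gene and a table of FPKM values per gene, each with 20030 genes and 9 libraries. Total counts per library ran from 16970486 to 18209213, and a count of 0 allows up to 3 counts, for counting error only. Of all genes, 245 to 297 per library had a count above 0 and an FPKM of 0.

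Genes were tested with edgeR 4.0.16 in R 4.3.3 (filterByExpr with a minimum count of 10, TMM, quasi-likelihood F test, two-sided, Benjamini-Hochberg over all genes tested), with the 6 libraries of each pair of lines in a fit of their own. A gene was called at an adjusted p under 0.05. A looser rule required an unadjusted p under 0.05 and a log2 fold change above 1 in size. Alternatives were DESeq2 1.42.0, its size factors within edgeR, no filter, a replicate block, all 9 libraries in one fit, limma 3.58.1 on log2(FPKM + 1) and log2(FPKM + 0.1) and on genes with a mean FPKM of at least 1, leaving out each library in turn, leaving out MHCC97L replicates 1 and 3, and offsets for GC content and length of transcripts (natural splines with 5 df each, 11974 genes, GENCODE 29), alone and with the block. Levels were also compared as FPKM and as CPM with TMM library sizes. The looser rule as an alternative setting and the alternatives for genes of the pathway lists were chosen after seeing the data. The code was tested on simulated data. Tables were made with SciPy 1.17.1 and pandas 2.3.3 and figures with matplotlib 3.10.9, all in Python 3.11.15.

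The 10 genes were named in every comparison. From each pathway list the called genes were named, up to 6 by smallest p, and the most abundant ones where fewer than 3 were called. For each FGF gene with a mean of at least 1 CPM, the 2 genes with the highest Pearson correlation were named. The lists covered other FGF ligands, co-receptors and binding proteins, heparan sulfate, signal relay, feedback and target genes, the bile acid axis, FGF21 induction, neighbours of FGF19, and markers of hepatocytes, fibroblasts, endothelial cells and leukocytes. The level of 1 hepatocyte marker is not reported here. The genes and lists were chosen with earlier results of these data known. Promoters are from RefSeq (GRCh38.p14) and gene positions from GENCODE 29 (GRCh38).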

Additional observations from a re-analysis of the deposited data

Results flagged for a closer look

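These values differed between the 2 resistant lines by a test of the difference itself, MHCC97L-Src against MHCC97L-Oxa in edgeR, each as a log2 fold change from 3 libraries per line, with the range of the adjusted p over 15 or 16 alternatives. FGF2 was lower in MHCC97L-Src (-1.07, range 0.00143 to 0.501), a call lost under 8 alternatives: without MHCC97L-Oxa replicate 1, 2 or 3 or MHCC97L-Src replicate 1, with GC and length offsets, with these and the replicate block, with limma at a pseudocount of 0.1 and in the fit of all 9 libraries. HS6ST1 was higher (0.53, range 0.00816 to 0.665), with the call lost under 7: without the same 4 libraries, with the replicate block, with block and offsets and in the fit of all 9. SULF2 was higher (1.24), with the call lost only in the fit of all 9 (adjusted p = 0.0758, the highest). DUSP4 was higher (0.75, range 0.000146 to 0.214), with the call lost without MHCC97L-Oxa replicate 1 or 3 or MHCC97L-Src replicate 1 (adjusted p = 0.0671, 0.0836 and 0.0611) and in the fit of all 9 (0.214). DUSP5 was higher (0.81, range 0.000183 to 0.642), with the call lost without MHCC97L-Oxa replicate 1, 2 or 3 or MHCC97L-Src replicate 1 (adjusted p = 0.0968, 0.0638, 0.103 and 0.106) and in the fit of all 9 (0.642). DCN (-1.89) and PDGFRB (-1.32) were lower, with the calls lost only in the fit of all 9 (adjusted p = 0.111 and 0.0870, the highest for each). CDH5 was higher (4.61) and was called under all 15 alternatives run. With 8, 12 and 7 counts in MHCC97L-Oxa, CDH5 passed the filter on low counts only through MHCC97L-Src, the line where it was higher. CD68 was lower (-0.75, range 0.000397 to 0.340), with the call lost without MHCC97L-Oxa replicate 1, 2 or 3 or MHCC97L-Src replicate 1 (adjusted p = 0.0609, 0.0728, 0.0658 and 0.0763) and in the fit of all 9 (0.340).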

How the results depend on the processing

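The log2 fold changes of the 6 tested FGF genes gave 18 values over the 3 comparisons, recomputed under 297 alternatives in all. In 256 the direction and the side of the threshold were kept, 26 passed the threshold where the reported value did not, 8 lost the call and 7 changed sign. The 12 ratios of mean levels to MHCC97L moved by less than 1 SD under all 24 alternatives. The changes of sign were in MHCC97L-Oxa against MHCC97L: FGF2 went to 0.093 with GC and length offsets and to 0.17 with offsets and the replicate block, and FGFR4 to -0.21 and -0.20 with the same, to -0.074 without MHCC97L replicate 1 and -0.021 without MHCC97L-Oxa replicate 2 (from -0.074 to 0.25 over the libraries left out), and to -0.24 without MHCC97L replicates 1 and 3. The cause was not tested.

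For MHCC97L-Src against MHCC97L, where edgeR called 256 genes and 0 of the 6 FGF genes, DESeq2 called 2187 and 2, no filter 702 and 1, all 9 libraries in one fit 1956 and 2, the offsets 963 and 1, and the looser rule 2966 and 2. Leaving out 1 library gave 22 to 3419 genes and 0 to 2 FGF genes. For MHCC97L-Oxa against MHCC97L, with 115 and 0, DESeq2 called 930 and 1, all 9 libraries in one fit 495 and 1, limma with a pseudocount of 1 252 and 1, with 0.1 256 and 0, and on genes of at least 1 mean FPKM 249 and 1. The offsets gave 1057 and 1, leaving out MHCC97L replicates 1 and 3 gave 2978 and 3, and the looser rule 1951 and 1. Leaving out 1 library gave 2 to 2705 genes and 0 to 3 FGF genes. For MHCC97L-Src against MHCC97L-Oxa, with 556 and 1, DESeq2 called 836 and 2, all 9 libraries in one fit 86 and 0, the offsets 921 and 1 (FGFR4, not FGF2), limma with a pseudocount of 0.1 474 and 0, limma on genes of at least 1 mean FPKM 471 and 2, and the looser rule 481 and 2. Leaving out 1 library gave 167 to 1617 genes and 0 to 2 FGF genes. The cause of these shifts was not tested.

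With the replicate block (replicates paired by number) the calls were 988 genes and 0 FGF genes, 92 and 0, and 406 and 1 in the 3 comparisons, and with offsets and the block 472 and 0, 490 and 1 (FGF21), and 611 and 0. Libraries of the same number did not correlate best with each other in every case: after removing line means the correlations were 0.17, 0.21 and -0.65 for MHCC97L-Src with MHCC97L, -0.21, -0.13 and 0.44 for MHCC97L-Oxa with MHCC97L, and 0.03, -0.08 and -0.29 for the resistant lines. The labels do not say whether libraries of the same number were paired, and correlations of so few libraries cannot decide it. The block alone changed no call of the 6 FGF genes.

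With 3 libraries per line, 1 derivative per drug and MHCC97L replicates that differ with the GC content of genes, differences from MHCC97L rest on few libraries. Genes that failed the low-count filter were not tested. Transcripts were measured as 1 value per gene, so splice forms of the receptors that bind different ligands cannot be told apart, and protein was not measured.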

Other observations

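LETM2, on the strand opposite to FGFR1, shares 138 exon bases with it, 0.997% of the gene's 13842 exon bases. It had 83, 68 and 74 counts in untreated MHCC97L, 43, 62 and 65 for MHCC97L-Src and 103, 70 and 73 for MHCC97L-Oxa, while FGFR1 had at least 920 in every library. CFAP299, which shares 136 exon bases with FGF5 on the same strand, had 0 counts in all 9 libraries, as did FGF5.

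FGF17 and FGF8, ligands known from the developing brain, were the other FGF ligands besides FGF11 with a library over the floor of 3 counts. FGF17 had 0, 11 and 0 counts in untreated MHCC97L, 13, 5 and 16 for MHCC97L-Src and 6, 5 and 6 for MHCC97L-Oxa. FGF8 had 1, 4 and 1 counts in untreated MHCC97L, 2, 1 and 2 for MHCC97L-Src and 1, 8 and 3 for MHCC97L-Oxa. The libraries of the 3 lines overlapped for both genes.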
